A study of Mus musculus with 8 samples.

Results

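The genes described here are the inhibitors of the cyclin-dependent kinases (Cdk) and the D-type cyclins, measured by RNA-seq in mouse B cells with and without Prmt5, the enzyme that places most symmetric dimethyl marks on arginine. They were chosen by symbol as 3 Cip/Kip inhibitors (Cdkn1a, Cdkn1b and Cdkn1c), 4 INK4 inhibitors (Cdkn2a, Cdkn2b, Cdkn2c and Cdkn2d) and 3 D cyclins (Ccnd1, Ccnd2 and Ccnd3), which makes 10 of the 39017 genes in the expression table. All 10 had a mean of at least 10 normalized counts and were tested. The cells were iGBs, splenic B cells of C57BL6/J mice grown into germinal center-like cells in 1 ng/mL IL-4. They grew on irradiated 40LB feeder cells, fibroblasts that supply CD40L and BAFF. Harvest was at day 4 by elutriation, which separates cells by size. Prmt5-null iGBs came from Prmt5 F/F Cγ1-cre mice (numbers 10617, 10618, 10770 and 10771) and control iGBs from Cγ1-cre mice (CTRL-10650 and CTRL-10370, then CTRL-10596 and CTRL-10597), 1 library per mouse, so that both genotypes carried the Cre. Cγ1-cre is active once a B cell transcribes the Cγ1 constant region, so Prmt5 was lost after activation and not in the resting cell. Values of libraries are given below in the order in which these mice are listed. The mice were 2 to 4 months old, males and females mixed.

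Cells leave G1 when D cyclins, induced by mitogens, activate Cdk4 and Cdk6 and these kinases begin to phosphorylate the retinoblastoma protein, which releases E2F factors. INK4 proteins bind Cdk4 and Cdk6 and keep D cyclins from them, whereas Cip/Kip proteins bind complexes of cyclins and Cdks, above all those of Cdk2, and are themselves held by cyclin D complexes. Cyclin D2 and D3 are the D cyclins typical of lymphocytes, cyclin D3 is needed for the expansion of germinal center B cells, and Cdkn1a is the best known transcriptional target of p53.

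Prmt5 itself was at 1538 ± 436 normalized counts (SD) in the 4 Prmt5-null and at 11774 ± 908 in the 4 control libraries, lower by -2.98 on the log2 scale (adjusted p = 6.14e-06, limma), so the libraries matched their labels and some Prmt5 RNA was still present. In the authors' splicing values, a 164-base exon of Prmt5 was included at 0.989 to 1.0 in control and 0.027 to 0.304 in Prmt5-null iGBs. Most of the remaining RNA at this site thus lacked the exon. Which genotype comes first in those values was read in part from this exon. The libraries held 36731721 to 50366174 reads on genes. B cell markers were abundant, with Ms4a1, which encodes CD20, at 43984 ± 7881 normalized counts (SD, n = 4) in Prmt5-null and 46741 ± 3126 in control iGBs. Cd79a, a subunit of the B cell receptor, was called, at 8114 ± 831 in Prmt5-null and 13526 ± 923 in control iGBs. The T cell markers summed to at most 21.3 normalized counts, with Cd3e at 0, and the myeloid markers to at most 295, with S100a8 and S100a9 at 0. Adgre1, the F4/80 antigen of macrophages, was the 1 myeloid marker called, at 134 to 200.1 normalized counts in Prmt5-null and 71.1 to 123 in control iGBs. Markers of the feeder fibroblasts are given beside the D cyclins below. In such bulk libraries, fewer cells of a type and less RNA per cell cannot be told apart.

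Because the data bear on transcript levels, the stretches upstream of 2 of these genes are shown, those of Cdkn1a for being the 1 gene called and that of Cdkn2a for the only E2F word found. The sequences are from RefSeq on GRCm38.p6 and hold the 250 bases before an annotated transcription start, 5′ to 3′ on the strand of the gene. Capitals mark a match to the consensus p53 element in the first and an E2F word in the third.
Cdkn1a, upstream start, chr17:29090729-29090978, plus strand: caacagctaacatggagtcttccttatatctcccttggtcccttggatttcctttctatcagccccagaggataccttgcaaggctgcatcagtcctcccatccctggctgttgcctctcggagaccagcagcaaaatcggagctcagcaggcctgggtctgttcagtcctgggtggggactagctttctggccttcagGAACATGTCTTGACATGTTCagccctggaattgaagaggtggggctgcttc
Cdkn1a, downstream start, chr17:29093519-29093768, plus strand: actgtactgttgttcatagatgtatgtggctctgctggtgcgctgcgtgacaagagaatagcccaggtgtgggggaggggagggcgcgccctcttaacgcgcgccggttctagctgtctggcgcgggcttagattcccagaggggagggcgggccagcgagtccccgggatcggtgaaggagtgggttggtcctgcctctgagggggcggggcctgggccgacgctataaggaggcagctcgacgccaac
Cdkn2a, upstream start, chr4:89294620-89294869, minus strand: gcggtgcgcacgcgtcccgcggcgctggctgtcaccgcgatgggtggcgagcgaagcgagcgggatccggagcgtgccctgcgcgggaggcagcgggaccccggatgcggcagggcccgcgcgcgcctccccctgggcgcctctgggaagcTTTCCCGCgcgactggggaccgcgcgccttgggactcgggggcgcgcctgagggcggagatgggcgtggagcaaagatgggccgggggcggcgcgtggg
RefSeq windows of 250 bases before to 50 bases after the start were matched for 7 of the 10 genes, 11 windows in all, and not for Cdkn1c, Ccnd1 and Ccnd2. The consensus p53 element, taken as a pair of adjoining decamers with at most 1 letter off outside their cores, was searched on both strands, with the allowance chosen after the Cdkn1a sequence was seen. It was present in 1 of the 11 windows, as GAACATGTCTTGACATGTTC at chr17:29090928-29090947, 51 to 32 bases before the upstream start of Cdkn1a and outside any annotated gene. Of all 32851 promoter windows, 18 held it (0.0548%). The E2F words TTTCCCGC, TTTCGCGC, TTTGCCGC and TTTGGCGC, read on both strands, were present in 1 of the 11 windows, as TTTCCCGC 99 to 92 bases before the upstream start of Cdkn2a, and in 2.26% of all windows. The matches do not overlap each other, and neither was tested for binding. Which annotated start of Cdkn1a or Cdkn2a the cells used was not examined.

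Among the Cdk inhibitors and D cyclins, Cdkn1a alone rose past both thresholds after loss of Prmt5, by 2.59-fold. Genes count as called where limma's adjusted p, over all 16250 genes tested, was below 0.05 and the change at least 1.5-fold. This held for 1 of the 10 genes, against 6.48% of all genes tested, or 3.49% in the higher and 2.99% in the lower direction, so the number called was close to that background. By adjusted p alone, 2 of 10 passed, Cdkn1a and Ccnd3, both higher, against 13.8% of all genes tested (6.51% higher and 7.33% lower). In these 2 genes, too, the genotypes did not overlap, with every Prmt5-null library above every control library. Of all genes 19.8% did not overlap, 9.67% with the Prmt5-null libraries above and 10.2% with them below, where no member was found. Of the 10 genes, 6 had a positive and 4 a negative log2 fold change, with a median of 0.08 beside 0.00 for all genes. The plots of levels by library and of fold changes show that the 3 D cyclins and Cdkn1a had positive point estimates, while 3 of the 4 INK4 genes and Cdkn1c had negative ones.

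**Figure D1:**
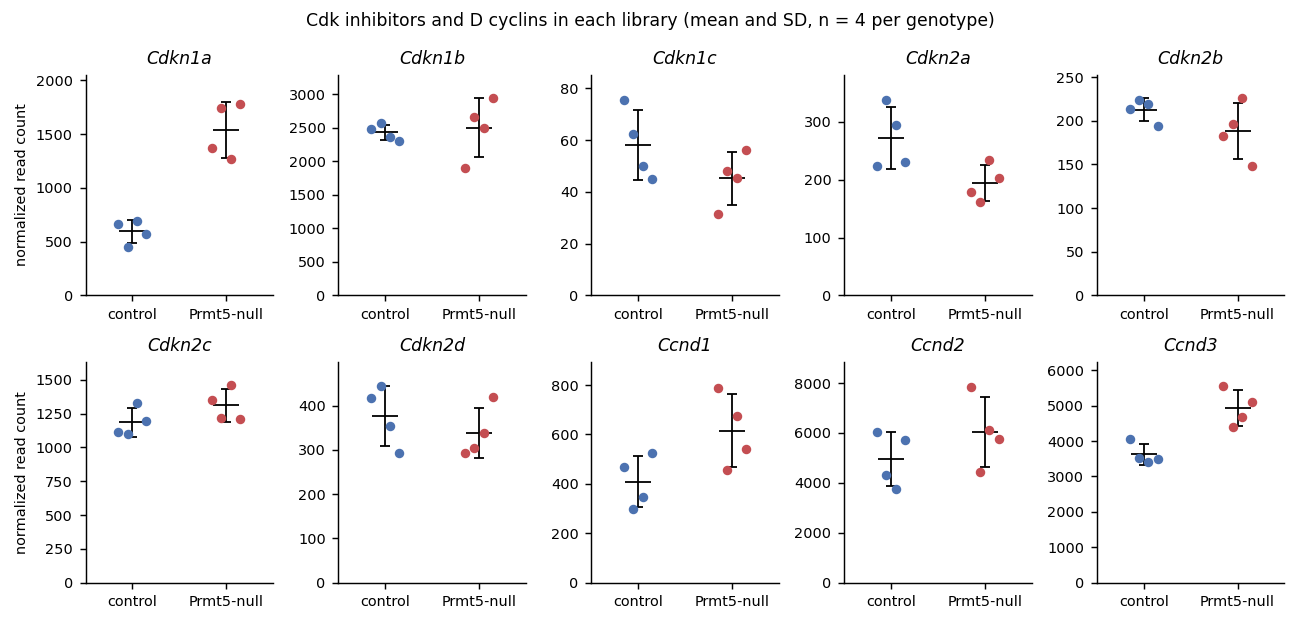
Normalized read count (vertical axes, from 0, 1 scale per panel) of the 10 genes in each of 4 control (blue) and 4 Prmt5-null (red) libraries, with black bars for mean and SD. The genotypes are apart in Cdkn1a, at 452 to 695 against 1267 to 1784, and in Ccnd3, at 3418 to 4054 against 4404 to 5556, and overlap in the other 8 genes.

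**Figure D2:**
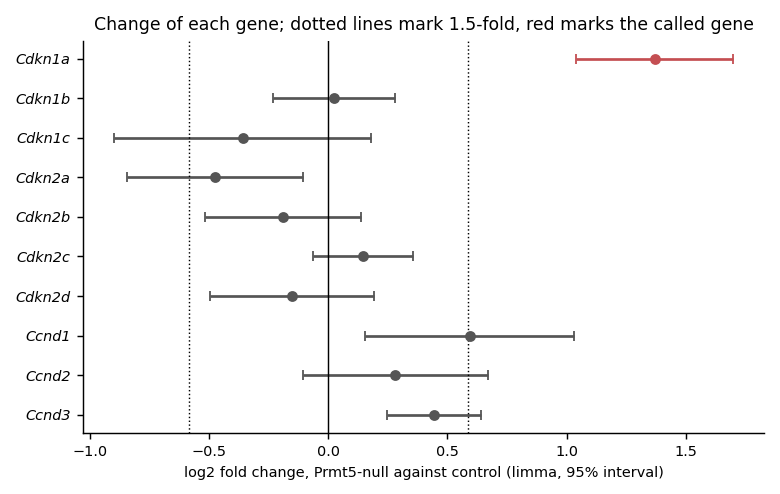
Log2 fold change, Prmt5-null against control (horizontal axis), of the 10 genes from limma with its 95% interval. Dotted lines mark a change of 1.5-fold, and only Cdkn1a, in red at 1.37, passed both this line and the adjusted p.

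Among the Cip/Kip genes, Cdkn1a (chr17:29090976-29100727, plus strand) encodes p21, which binds and inhibits Cdk2 complexes and halts cells in G1. It had 1367, 1739.6, 1267 and 1784 normalized counts in the Prmt5-null libraries and 662, 452, 695 and 572 in the control libraries. The lowest Prmt5-null library, 10770, lay well above the highest control library, CTRL-10596. The means were 1539 ± 261 and 595 ± 109 (SD, n = 4 each). limma gave a difference of 1.37 on the log2 scale (standard error 0.15, 95% interval 1.04 to 1.70) and an adjusted p of 0.000225. Leaving out any 1 library kept this difference between 1.25 and 1.46. An annotated transcript of unconfirmed status lies on the opposite strand over an exon of Cdkn1a. It has no row in the table, and the strand setting of the counting is not given in the sources used here.

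Cdkn1b (chr6:134920401-134925513, plus strand) encodes p27, the inhibitor that keeps resting lymphocytes out of the cycle. Its levels were 1896, 2664, 2499 and 2939 normalized counts in Prmt5-null and 2477, 2565, 2366 and 2307 in control iGBs. The Prmt5-null libraries lay on both sides of the control libraries, with 10617 lowest and 10771 highest of all 8. The difference of 0.02 on the log2 scale (standard error 0.12) had an adjusted p of 0.92 in limma, and its 95% interval covers changes from 0.851-fold to 1.22-fold. The coefficient of variation was 17.7% in Prmt5-null and 4.73% in control libraries, a difference that was not tested. The sign turned to -0.01 without Prmt5-null replicate 10618 and to -0.06 without replicate 10771.

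Cdkn1c (chr7:143458339-143461050, minus strand), an imprinted gene that encodes p57, was the least abundant of the 10, with 34 to 70 reads per library. It had 31.5, 48.0, 45.4 and 56.1 normalized counts in Prmt5-null and 75.4, 62.4, 50.2 and 45.0 in control iGBs, and the genotypes overlapped. Its log2 fold change of -0.36 had a 95% interval from -0.90 to 0.18 (adjusted p = 0.367 from limma). This width leaves both a fall and a small rise possible at this depth.

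Within the Cip/Kip group the levels were set against each other per kb of exon, since longer genes collect more reads. In control iGBs, Cdkn1b had 534 ± 25.2, Cdkn1a 168 ± 30.6 and Cdkn1c 28.6 ± 6.65 normalized counts per kb (SD, n = 4 each). In Prmt5-null iGBs the level of Cdkn1a per kb was 433 ± 73.4 beside 549 ± 97.0 for Cdkn1b, so that their ranges, 357 to 502 and 417 to 646, now overlapped. Cdkn1a made up 22.9% of the summed Cip/Kip level per kb in control libraries (17.6% to 26.4%) and 43.2% in Prmt5-null libraries (38.4% to 47.1%). The ratio of Cdkn1b to Cdkn1a per kb was 3.29 in control (2.66 to 4.43) and 1.28 in Prmt5-null iGBs (1.08 to 1.54). With the longest transcript as the length these ratios were 1.92 and 0.747, so which of the 2 led in Prmt5-null iGBs depended on the length used, while the shift between genotypes had the same direction with both.

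None of the 4 INK4 genes was called or passed the adjusted p. Cdkn2a (chr4:89274471-89294653, minus strand) encodes p16Ink4a and, from another first exon and reading frame, p19Arf, which restrains Mdm2. Gene counts pool both transcripts. It had 179, 162, 234 and 203 normalized counts in Prmt5-null and 224, 338, 294 and 231 in control iGBs. Only Prmt5-null 10770, at 234, lay within the control range, which began at 224. limma put the change at -0.47 on the log2 scale (standard error 0.17, 95% interval -0.84 to -0.10), with an adjusted p of 0.0855 from limma and between 0.0299 and 0.12 over the alternatives that kept all libraries. Over the fits that each left out 1 library the change ranged from -0.57 to -0.36, always short of 1.5-fold, with limma's adjusted p from 0.0462 to 0.205. Among the settings with an adjusted p below 0.05 were the fit without Prmt5-null 10770, at 0.0462, and DESeq2, at 0.0377.

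Cdkn2b (chr4:89306299-89311039, minus strand), which encodes p15 and neighbors Cdkn2a, had 183, 196, 226 and 148 normalized counts in Prmt5-null and 213, 224, 219 and 194 in control iGBs. On the log2 scale the difference was -0.19 (95% interval -0.52 to 0.14, adjusted p = 0.434 from limma). Prmt5-null 10771 was the lowest and 10770 the highest library of all 8.

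Cdkn2c (chr4:109660876-109667189, minus strand) encodes p18, which restrains the growth of B cells and is needed for normal plasma cells. It had 1347, 1216, 1464 and 1213 normalized counts in Prmt5-null and 1110.5, 1102, 1330.4 and 1193 in control iGBs. All 4 Prmt5-null libraries lay above 3 of the 4 control libraries, and CTRL-10596 lay among them. The fitted change was 0.15 on the log2 scale (standard error 0.10, 95% interval -0.06 to 0.35, adjusted p = 0.343 from limma). It was the most abundant INK4 gene per kb, at 441 ± 39.4 in control and 488 ± 44.8 in Prmt5-null iGBs (SD, n = 4 each).

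Cdkn2d (chr9:21288410-21291407, minus strand), which encodes p19Ink4d, had 293, 304, 338 and 419 normalized counts in Prmt5-null and 418, 445, 354 and 293 in control iGBs. Both genotypes covered nearly the same range. The fitted change was -0.15 on the log2 scale (95% interval -0.50 to 0.19, adjusted p = 0.566 from limma). Per kb, Cdkn2c made up 41.5% of the summed INK4 level in control libraries and 48.6% in Prmt5-null libraries. Its ranges, 35.9% to 45.9% and 45.3% to 51.6%, overlapped, as did those of Cdkn2b and Cdkn2d. The share of Cdkn2a did not overlap, at 21.6% in control (18.7% or more) and 16.4% in Prmt5-null libraries (17.8% or less). With the longest transcript as the length it was 25.1% (21.8% or more) and 19.3% (20.8% or less), also without overlap. The shares were not tested. The summed level itself was 967 to 1142 per kb in control and 925 to 1122 in Prmt5-null libraries.

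All 3 D cyclins had positive log2 fold changes, and none was called at 1.5-fold. Ccnd3 (chr17:47505051-47599691, plus strand) encodes cyclin D3. It had 5556, 4404, 4667 and 5106 normalized counts in Prmt5-null and 4054, 3523, 3418 and 3489 in control iGBs, with every Prmt5-null library above every control library. The means were 4933 ± 506 and 3621 ± 292 (SD, n = 4 each). Its log2 fold change of 0.44 (standard error 0.09, 95% interval 0.25 to 0.64, or 1.19-fold to 1.56-fold) passed the adjusted p (0.00699 from limma) but not the fold threshold. Left-out libraries moved it only between 0.38 and 0.50, with adjusted p from 0.00468 to 0.0281. A pseudogene, Ccnd3-ps, named after its values were seen, had 170.5 ± 41.5 and 117 ± 20.5 normalized counts, with an adjusted p of 0.104 from limma. Bysl, which lies on the opposite strand over an exon of Ccnd3, had a log2 fold change of -0.11 (adjusted p = 0.41 from limma).

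Ccnd2 (chr6:127125162-127152193, minus strand) encodes cyclin D2, which is induced when B cells are activated. Its counts were the highest of the 10 genes in the Prmt5-null and in the control means, at 7841, 4423, 6101 and 5774 in Prmt5-null and 6048, 4331, 3745 and 5704 in control iGBs. The genotypes overlapped over most of their range. On the log2 scale the difference was 0.28 (standard error 0.18, 95% interval -0.11 to 0.67, adjusted p = 0.323 from limma). The antisense RNA 9330179D12Rik, which overlaps an exon of Ccnd2, had 27.8 ± 8.70 and 16.6 ± 8.63 normalized counts (adjusted p = 0.2 from limma).

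Ccnd1 (chr7:144929931-144939925, minus strand) encodes cyclin D1, which many cell types other than lymphocytes use, fibroblasts included. It had 788, 456, 676 and 541 normalized counts in Prmt5-null and 467, 298, 348 and 524 in control iGBs. Prmt5-null 10618 lay below CTRL-10650 and CTRL-10597, so the genotypes overlapped. limma put the change at 0.59 on the log2 scale (standard error 0.20, 95% interval 0.15 to 1.03), or 1.51-fold, with an adjusted p of 0.0725 from limma. It was called without Prmt5-null replicate 10618, at 0.73 (adjusted p = 0.029), without CTRL-10597, at 0.72 (adjusted p = 0.047), and by DESeq2 (adjusted p = 0.0266). The adjusted p ran from 0.029 to 0.181 with each library left out and from 0.00573 to 0.137 over the alternatives that kept all libraries. Oraov1, on the opposite strand over an exon of Ccnd1, had a log2 fold change of 0.02 (adjusted p = 0.937 from limma).

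The D cyclins were set beside markers of the feeder fibroblasts in each library. The 16 fibroblast markers summed to 11439, 6234, 9738 and 8146 normalized counts in Prmt5-null and 7138, 4072, 4946 and 5701 in control iGBs, with none of the 16 at 0 in all libraries. Of the 13 tested, all had positive log2 fold changes, with a median of 0.72. The 3 called, against 6.48% of all genes tested, were the collagen genes Col1a2 and Col3a1 and the matrix gene Sparc. Col1a2, the most abundant, was at 3737, 1959, 2906 and 2532 normalized counts in Prmt5-null and 2069, 1301, 1588 and 1706 in control iGBs.

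The order of the Prmt5-null libraries in the feeder sum, 10617, 10770, 10771 and 10618 from high to low, was also their order in Ccnd1 and in Ccnd2. In control iGBs, CTRL-10650 and CTRL-10597 were the top libraries in the feeder sum, in Ccnd1 and in Ccnd2. In Ccnd3, Prmt5-null 10617 was highest and 10618 lowest, as in the feeder sum, with the middle pair exchanged. Among the control libraries CTRL-10650 was highest in both, but CTRL-10370, lowest in the feeder sum, was the next highest in Ccnd3. Cdkn1a had another order, with Prmt5-null 10771 and 10618 highest. Of the Prmt5-null libraries, only 10618 had a feeder sum, 6234, within the control range, 4072 to 7138, so genotype and feeder sum were largely confounded. Beside CTRL-10650, at 7138, it had 4404 against 4054 of Ccnd3 and 1739.6 against 662 of Cdkn1a. Its Ccnd1 was at 456 against 467 and its Ccnd2 at 4423 against 6048. These values compare single libraries. The part of the feeder cells in the counts of these genes was not tested.

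**Figure D3:**
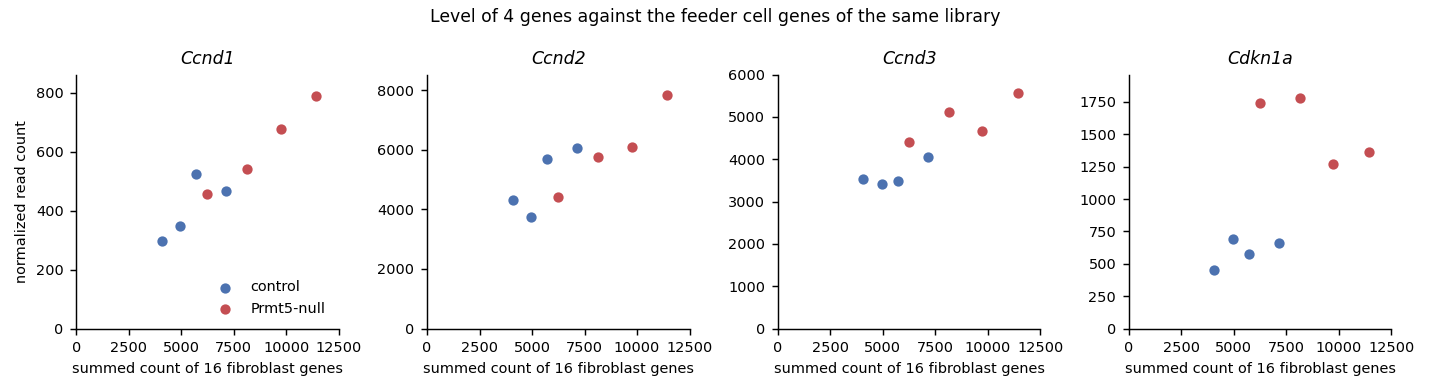
Normalized read count of Ccnd1, Ccnd2, Ccnd3 and Cdkn1a (vertical axes, from 0) against the summed normalized counts of 16 fibroblast genes (horizontal axis) in the same library, with 4 control (blue) and 4 Prmt5-null (red) points. Ccnd1 runs from 298 at a sum of 4072 to 788 at 11439 across both genotypes. All red points lie above all blue ones in Ccnd3, at 4404 or more against 4054 or less. The same holds in Cdkn1a, at 1267 or more against 695 or less. Of the red sums, only the lowest, 6234, lies within the blue range, 4072 to 7138, so the genotypes are not compared at matched sums.

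Per kb of exon, Ccnd2 and Ccnd3 lay above Ccnd1 in every library of both genotypes. In control iGBs, Ccnd2 had 527 ± 117, Ccnd3 413 ± 33.3 and Ccnd1 86.9 ± 22.2 normalized counts per kb (SD, n = 4 each). The ranges of the first 2 overlapped, though Ccnd2 lay above Ccnd3 within each control library, at a ratio of 1.02 to 1.53. Their mean ratio of 1.27 became 0.831 (0.668 to 0.997) with the longest transcript as the length. Of the summed D cyclin level, Ccnd1 took 8.41% in control and 9.73% in Prmt5-null iGBs, Ccnd2 50.9% and 47.7%, and Ccnd3 40.7% and 42.6%, and each pair of ranges overlapped between the genotypes. The sum was 861 to 1204 per kb in control and 1069 to 1634 in Prmt5-null libraries, or 1570.5 to 2131 and 1962 to 2889.5 with the longest transcript. The ratio of the 7 inhibitors to the 3 D cyclins per kb was 1.79 in control (1.49 to 2.17) and 1.55 in Prmt5-null iGBs (1.09 to 1.89), again with overlap, and with the longest transcript it was 1.14 (0.961 to 1.37) and 1.04 (0.752 to 1.26). For Cdkn1a alone the ratio was 0.166 in control (0.138 to 0.227) and 0.337 in Prmt5-null iGBs (0.235 to 0.458), without overlap. With the longest transcript it was 0.158 (0.13 to 0.213) and 0.318 (0.227 to 0.426). Neither ratio was tested.

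In the order of all 10 genes per kb in control iGBs, Cdkn1b, Ccnd2, Cdkn2c and Ccnd3 came first, at 534, 527, 441 and 413. Cdkn2d and Cdkn2a followed at 239.7 and 232, then Cdkn1a and Cdkn2b at 168 and 153, Ccnd1 at 86.9 and Cdkn1c at 28.6. Within the first 4 the ranges of neighbors overlapped, as they did from Cdkn2d to Cdkn2a, from Cdkn2a to Cdkn1a and from Cdkn1a to Cdkn2b. Library by library, though, Cdkn2a lay above Cdkn1a in every control library, at 191, 288, 251 and 197 against 186, 127, 196 and 161. The other neighbors with overlapping ranges changed places between control libraries. In every control library, Ccnd3 lay above Cdkn2d, Ccnd1 below the lowest value of Cdkn2b, 139.8, and Cdkn1c below the lowest value of Ccnd1, 63.2. In Prmt5-null iGBs Cdkn1a, at 433, came next below Cdkn2c, at 488. The order depended on the length used. With the longest transcript, Ccnd3 led the control order at 939 and Ccnd2 followed at 783, apart from Cdkn1b at 534, with Cdkn2c at 479. Cdkn2a and Cdkn1a then lay above Cdkn2d, at 304, 286 and 265, and the highest Ccnd1 library, at 140.0, reached the lowest of Cdkn2b. With this length Cdkn1a in Prmt5-null iGBs was at 740.1, above Cdkn1b at 549 and Cdkn2c at 530.1.

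**Figure D4:**
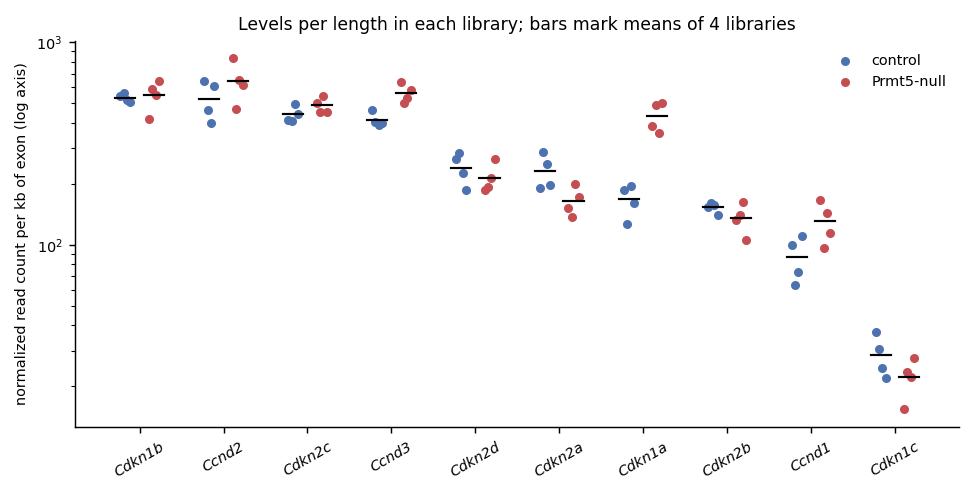
Normalized read count per kb of exon (log axis) of the 10 genes in each control (blue) and Prmt5-null (red) library, ordered by the control mean, with black bars for means of 4 libraries. With this length Cdkn1a is at 168 in control and 433 in Prmt5-null iGBs, and Cdkn1b at 534 and 549.

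None of the 10 genes had a splicing event in the authors' deposited rMATS tables, which list 1918 events with a difference between the genotypes (913 skipped exons, 350 mutually exclusive exons, 190 altered 5′ and 128 altered 3′ splice sites and 337 retained introns). Since the tables hold selected events, this says only that no event of these genes was listed. Some of their partners were listed, named here after their values were seen, with inclusion levels given as the authors' values for 4 libraries each. A 144-base exon of Cdk2, the kinase that p21 and p27 inhibit (chr10:128699976-128700119), had inclusion levels of 0.158 to 0.263 in control and 0.059 to 0.112 in Prmt5-null iGBs, over 2178 reads. A 67-base exon of Tfdp1, the partner of E2F factors, had 0.786 to 0.845 and 0.643 to 0.696. An 85-base exon of Mdm2, the ubiquitin ligase of p53, had 0.616 to 0.705 and 0.47 to 0.549. An intron of Rnf123, a subunit of a ligase for p27, was retained at 0.204 to 0.326 and 0.403 to 0.562. In an exon of Dyrk1a, a kinase that marks D cyclins for turnover, the genotypes overlapped, at 0.774 to 0.864 and 0.625 to 0.788. A 67-base exon of Tfdp2 was at 1.0 in every control value and at 0.594 to 0.722 in Prmt5-null iGBs, over only 106 reads. A 126-base exon of Ezh2 had 0.672 to 0.701 in control and 0.53 to 0.624 in Prmt5-null iGBs, and an intron of Tyms 0.534 to 0.798 and 0.835 to 1.0. Mutually exclusive exons of Tfdp2 and an altered 5′ splice site of Ezh2 were listed as well. The tables hold events chosen for a difference, which favors ranges that do not overlap, so no test applies. The share of all 1918 events without overlap was not counted.

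The other genes of the pathway were taken from lists written from general knowledge, and no list was tested as a set. Over all genes tested, 6.48% were called. By adjusted p alone, 6.51% were higher and 7.33% lower, and 8184 of the 16250 genes had positive log2 fold changes. Of 12 Cdks and cyclin partners, 11 had negative log2 fold changes (median -0.13), none was called and 1 passed the adjusted p alone. This was Ccne1, cyclin E1 and the partner of Cdk2 at the entry into S phase, at 1015 ± 157 normalized counts in Prmt5-null and 1509.8 ± 96.7 in control iGBs (log2 fold change -0.58, adjusted p = 0.00463 from limma), with no overlap. It lay just short of 1.5-fold, and was past it without Prmt5-null replicate 10617 and without CTRL-10370, at up to -0.68. Ccnb1, a mitotic cyclin, had -0.27 (adjusted p = 0.0702 from limma). Of 13 pocket proteins and E2F genes, none was called and 4 passed the adjusted p alone, all lower, against 7.33% of all genes tested. These were the repressor E2f6 (-0.40, adjusted p = 0.00692 from limma) and Rbl1, which encodes p107 (-0.31, adjusted p = 0.0201), and, named after their values were seen, E2f4 and E2f8.

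Of 17 genes for the turnover of p27, p21 and D cyclins, none was called, and Cul4a, the scaffold of a ligase for p21, passed the adjusted p alone, higher by 0.24 on the log2 scale (adjusted p = 0.0442 from limma). Rbx1, the RING subunit of cullin ligases, had 0.21 (adjusted p = 0.231 from limma). Of 18 regulators of transcription of these genes, 2 were called, against 6.48% of all genes tested. Mdm2 rose from 7297 ± 345 to 11009.6 ± 1357 normalized counts (log2 fold change 0.59, adjusted p = 0.00162 from limma), and Hes1, a Notch target that represses Cip/Kip genes, fell from 111 ± 14.5 to 59.9 ± 21.8 (-0.96, adjusted p = 0.0362 from limma). Both calls were close to a threshold, and Mdm2 was called in 3 and Hes1 in 2 of the 8 fits that left out 1 library, with Mdm2 between 0.53 and 0.66 and Hes1 between -1.12 and -0.69. By adjusted p alone, Trp53, which encodes p53 (0.39, adjusted p = 0.0143), and Ezh2, a histone methyltransferase that silences Cdkn2a (0.44, adjusted p = 0.00709), were also higher, both named after their values were seen.

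Of 15 markers of proliferation, none was called, the median was 0.01, and 3 passed the adjusted p alone, all lower, against 7.33% of all genes tested. These were Top2a (-0.35, adjusted p = 0.0221 from limma), Cdc6, which loads the replicative helicase (-0.24, adjusted p = 0.0325), and Mcm7 (-0.26, adjusted p = 0.0451), the last named after its value was seen. Of 15 other brakes of G1 and growth, 1 was called, against 6.48% of all genes tested. Ccng1, cyclin G1 and a known target of p53, rose from 28460.1 ± 953 to 43013 ± 2524 normalized counts (0.59, adjusted p = 0.000496 from limma). It stayed higher in each fit that left out 1 library, at 0.56 to 0.63, but fell short of 1.5-fold without Prmt5-null replicate 10618 and without CTRL-10370. Cdkn1a, at 1.37, lay above the largest log2 fold change in any of these lists, 0.59.

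**Figure D5:**
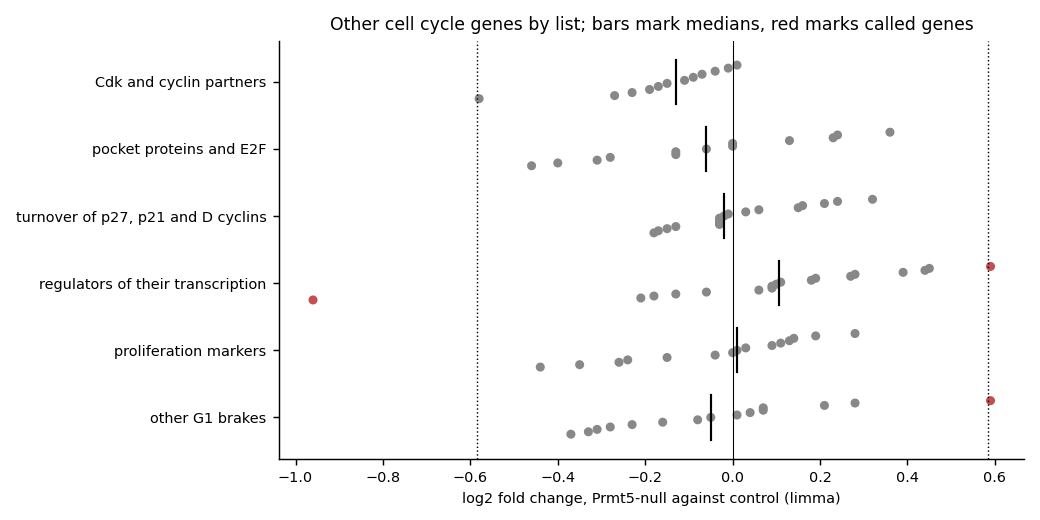
Log2 fold change, Prmt5-null against control (horizontal axis, limma), of each gene in 6 lists of other cell cycle genes, with black bars for the median of a list, dotted lines at 1.5-fold and called genes in red. The 3 red points are Hes1 at -0.96 and Mdm2 and Ccng1 at 0.59, and 11 of the 12 Cdks and cyclin partners lie below 0.

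The 3 genes whose log2 levels ran most closely with those of Cdkn1a over the 8 libraries, among 13290 genes with a mean above 50, were Grb10 (Pearson r = 0.992), Fam212b (r = 0.991) and Ksr1 (r = 0.99). All were higher in Prmt5-null iGBs, Grb10 at 253 against 81.5 normalized counts, Fam212b at 1366 against 523 and Ksr1 at 3865 against 2671. The 8 points share the split into genotypes, so these values describe likeness and carry no test.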

How the data were processed

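RNA from 8 cultures of iGBs, 4 per genotype, was depleted of ribosomal RNA and sequenced with a stranded kit. Per the labels and the study's methods, the authors trimmed reads with Trimmomatic 0.32, aligned them with STAR 2.3.0e to GRCm38 and counted them on Ensembl genes with featureCounts 1.4.4. The deposited signal is each count divided by the DESeq2 1.14.1 size factor of its library. In every library 100% of values came out as whole reads (tolerance 0.001), which gave totals of 36731721 to 50366174 reads. Uniquely mapped reads miss near-identical copies, and the strand setting is not given in the sources used here. The authors' rMATS 3.2.5 tables hold inclusion levels as fractions per library and counts of reads, given here as deposited with no test. Their p-values, FDR values and gene fold columns were not used for any result.

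Genotypes were compared with limma 3.58.1 (lmFit, eBayes with a trend, two-sided) in R 4.3.3 on log2(normalized count + 1) over 16250 genes with a mean of at least 10, with Benjamini-Hochberg adjustment over all of them. Fold changes are on this scale, which understates the change of low genes. limma called 1053 genes at an adjusted p below 0.05 and 1.5-fold. On the recovered reads, edgeR 4.0.16 (quasi-likelihood test) called 1091 and DESeq2 1.42.0 called 1277. Exact two-sided permutation tests of 4 against 4 libraries cannot give a p below 0.0286, which Cdkn1a and Ccnd3 reached. The fits were tested on simulated data. Levels per kb used the union of exons, or the longest transcript, of GENCODE M21 (GRCm38), and promoters were from RefSeq GRCm38.p6. Python 3.11.15 (SciPy 1.17.1, pandas 2.3.3, NumPy 2.4.6) handled the tables.

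The genes described and the lists were chosen with earlier results of these data known. Named genes are the 10 members, Prmt5, the called genes of each list or else the 2 with the smallest p, the most abundant markers, and the 3 genes most like a called member. Alternatives changed the pseudocount (0.5 and 5), the filter on low values, the normalization (TMM), the trend, the thresholds, the tool and which libraries entered. Since the labels do not say which of 2 experiments a library came from, the experiment was added as a block in all 18 placements. The libraries are from separate mice. A further marker gene of the lists is not reported here.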

Additional observations from a re-analysis of the deposited data

Results flagged for a closer look

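The control library CTRL-10650 had 4054 normalized counts of Ccnd3, while the other 3 control libraries lay between 3418 and 3523. Its gap to the nearest of them was 0.834 of the range of the group, just above Dixon's 95% limit for 4 samples. Of 20 groups examined, 10 genes in 2 genotypes, this was the only one past the limit, and chance alone flags about 1 in 20. The same library had the highest sum of feeder cell genes among the controls, 7138 normalized counts. Its Ccnd3 count lay below that of the lowest Prmt5-null library, at 4404.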

How the results depend on the processing

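No paired analysis was possible because the genotypes share no replicate numbers. Cdkn1a was called and Ccnd3 passed an adjusted p of 0.05 but not 1.5-fold under each change of pseudocount, filter, normalization, trend, tool or experiment placement and in each of the 8 fits that left out 1 library. The log2 fold change of Ccnd1 was 0.59 and called under DESeq2 (adjusted p = 0.0266) and in the most favorable placement of the experiments (adjusted p = 0.00573, 0.1 in the least), and ran from 0.45 to 0.73 with each library left out. That of Cdkn1b turned sign in the left-out fits, from -0.06 to 0.15. That of Cdkn2a ran from -0.57 to -0.36 in the left-out fits, with limma's adjusted p from 0.0462 to 0.205, and DESeq2 gave an adjusted p of 0.0377. The number of members called was 2 under DESeq2, without a fold threshold and in the highest placement, and 1 to 2 with each library left out. All genes called numbered 2249 without a fold threshold, 637 at an adjusted p below 0.01, and 795 to 1173 with each library left out. Without a fold threshold the lists gave 1 Cdk or cyclin partner (also 1 under TMM, and 0 to 1 in the left-out fits), 4 pocket or E2F genes, 1 gene of turnover, 4 regulators of transcription and 3 proliferation markers. The regulators gave 1 under no filter, TMM, no trend, an adjusted p below 0.01 and the lowest placement, and 0 to 1 with each library left out, and the G1 brakes gave 0 to 1. With the longest transcript as the length, the control ratios per kb became 0.831 for Ccnd2 to Ccnd3, 8.97 for Ccnd3 to Ccnd1 and 1.92 for Cdkn1b to Cdkn1a. The cause of these shifts was not tested, other than those that a threshold or a length makes by its construction. Depth limits Cdkn1c, at 34 to 70 reads per library.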
